A study of Homo sapiens with 18 samples.

Results

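The genes described here write, copy, read or remove DNA methylation, and they were chosen by symbol: the DNA methyltransferases *DNMT1*, *DNMT3A* and *DNMT3B*, the cofactor *UHRF1*, the dioxygenases *TET1*, *TET2* and *TET3*, and the reader *MBD2*. They are 8 of the 26941 genes in the count tables. Their levels in each cell line are given beside *SOX11*, followed by what happened to them after *SOX11* was lowered with siRNA.

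DNA methylation is the addition of a methyl group to cytosine, mostly where a G follows it. DNMT3A and DNMT3B place new marks, while DNMT1 copies existing marks to the new strand after replication, brought there by UHRF1, which binds half-methylated sites. The TET enzymes oxidise the methyl group, which leads to its loss, and MBD2 binds methylated DNA and recruits a repressor complex. In blood cells *DNMT3A* and *TET2* are known as genes mutated in myeloid disease, and *TET2* loss alters B-cell differentiation.

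RNA was sequenced from 18 samples of 3 established lines of B-cell precursor acute lymphoblastic leukemia. REH carries the ETV6-RUNX1 fusion. In each line 3 samples were nucleofected with *SOX11* siRNA and 3 with a non-specific control siRNA, each at 300 nM, and RNA was collected after 48 h from independent biological replicates. All samples therefore share the nucleofection, there was no untransfected sample, and *SOX11* was lowered rather than lost. No DNA methylation was measured in these samples, so the text is about mRNA only. Each line has its own count table, so a difference between lines cannot be told apart from a difference between tables. The total count on genes was between 7039594 and 16592492 per sample. Levels are in CPM, counts scaled to library sizes after TMM correction, and the floor of 3 counts, under which a gene was not taken as detected, was 0.181 to 0.426 CPM. Such floors, and the count intervals below, cover counting error only.

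The labelled cell type was checked first. Of 12 B-cell precursor genes, 11 were at 1 CPM or more in REH, all but *VPREB1*, and 12 in each of 697 and RCH-ACV. The 6 T-cell and the 5 erythroid and megakaryocyte genes were all below 1 CPM in the 3 lines. Of 6 myeloid genes 1 was above it in each line, *MPO* at 10.7 CPM in REH, and *CSF1R* at 27.6 CPM in RCH-ACV and 3.47 CPM in 697.

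*SOX11*, a transcription factor gene with 1 exon on chromosome 2 (5832516 to 5841517, plus strand, hg19), was highest in RCH-ACV. Its control samples had 124, 136 and 133 CPM there, 98.7, 97.4 and 93.1 CPM in REH, and 59.8, 59.8 and 59.3 CPM in 697. With *SOX11* siRNA they had 81.6, 78.8 and 86.8 CPM in RCH-ACV, 47.7, 53.4 and 61.4 CPM in REH, and 32.6, 31.7 and 30.9 CPM in 697. The groups did not overlap in any line. The fold change of a line is given as log2 of *SOX11* siRNA over control siRNA, from edgeR's quasi-likelihood test, with p-values adjusted by the Benjamini-Hochberg method over all genes tested in that comparison. *SOX11* had a fold change of -0.91 in 697 (SE 0.07, adjusted p = 0.000232), -0.83 in REH (SE 0.06, adjusted p = 1.41e-08) and -0.67 in RCH-ACV (SE 0.05, adjusted p = 2.51e-06). The samples with *SOX11* siRNA thus kept a fraction of 0.530, 0.563 and 0.627 of the control level.

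The sequences before the canonical start sites of *DNMT1*, *TET1* and *TET2* are shown here. These members differ widely in how many CG pairs, the sites that methylation acts on, lie at that start. *UHRF1* and *DNMT3B*, which also differed between lines, are not shown. The sequences are from RefSeq (table on GRCh38.p14) and were matched letter for letter to hg19. All 8 members had a window in that table, 19 windows in all, and *SOX11* had none. Each line below is 250 bases ending at the start of the canonical transcript, 5′ to 3′ on the gene's strand, with CG in capitals. *DNMT1* (chr19:10305630-10305879, minus strand), which moved after the siRNA, has 21 CG pairs in it, *TET1* (chr10:70319844-70320093, plus strand), which was read in REH at a level far above the other lines, has 9, and *TET2* (chr4:106067783-106068032, plus strand), which was nearly absent from 697, has 34.
DNMT1: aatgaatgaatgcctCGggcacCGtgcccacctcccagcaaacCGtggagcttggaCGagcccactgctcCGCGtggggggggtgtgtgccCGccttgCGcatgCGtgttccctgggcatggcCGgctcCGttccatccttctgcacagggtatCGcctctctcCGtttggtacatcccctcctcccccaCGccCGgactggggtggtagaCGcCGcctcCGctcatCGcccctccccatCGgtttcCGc
TET1: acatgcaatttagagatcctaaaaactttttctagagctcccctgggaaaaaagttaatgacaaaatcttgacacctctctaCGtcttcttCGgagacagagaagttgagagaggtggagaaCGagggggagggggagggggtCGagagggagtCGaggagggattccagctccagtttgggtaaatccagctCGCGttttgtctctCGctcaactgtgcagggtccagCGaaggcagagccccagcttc
TET2: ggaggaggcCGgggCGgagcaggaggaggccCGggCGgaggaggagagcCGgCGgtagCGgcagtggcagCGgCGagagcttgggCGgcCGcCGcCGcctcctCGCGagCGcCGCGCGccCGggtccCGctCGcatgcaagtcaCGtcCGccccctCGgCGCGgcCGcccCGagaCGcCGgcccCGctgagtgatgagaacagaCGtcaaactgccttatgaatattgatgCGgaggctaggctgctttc

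With the 50 bases after the start included, as in the RefSeq table, the *TET2* window holds 35 CG pairs, the *DNMT1* window 30 and the *TET1* window 10. The median of all 35116 windows was 14, and 14.1%, 22.4% and 56.4% of windows had at least as many as *TET2*, *DNMT1* and *TET1*, respectively. Other starts of the same genes differ: a *TET2* window at -1001 bases from the canonical start holds 13, and *TET1* windows 39931 and 40137 bases downstream hold 6 and 11. The windows at the canonical starts of *UHRF1*, *TET3*, *DNMT3A* and *MBD2* hold 36, 45, 46 and 32. For *DNMT3B* the table holds only a start 17467 bases downstream of the canonical one, with 3 CG pairs.

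Between the lines, the clearest pattern was in the TET genes. In the control samples *TET1* was present in REH, at or slightly above the floor in RCH-ACV (3 to 7 counts) and below it in 697. *TET2* was present in REH and RCH-ACV and at or near 0 in 697, and *TET3* was present in all 3 lines. Of the other members, *UHRF1* was 2.32 times and 2.10 times higher in REH than in 697 and RCH-ACV, and *DNMT3B* was highest in 697. For each of *DNMT1*, *DNMT3A*, *TET3* and *MBD2* the fitted ratio between any 2 lines was at most 1.23. With a threshold of adjusted p under 0.05, 5 of 8 members differed between REH and 697, 6 between REH and RCH-ACV and 5 between 697 and RCH-ACV, in comparisons that share their control samples. Of all genes tested, 76.3%, 73.9% and 64.2% passed in the same comparisons, so these counts are near the background. *TET1* and *TET2* are among them, and each passed the filter on low counts only through the lines in which it was well above the floor. The 5 for 697 against RCH-ACV include *TET1*, which passed that filter through REH alone. Its control samples summed to 1 count in 697 and 14 in RCH-ACV, so this call does not settle the order of these lines.

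**Figure D1:**
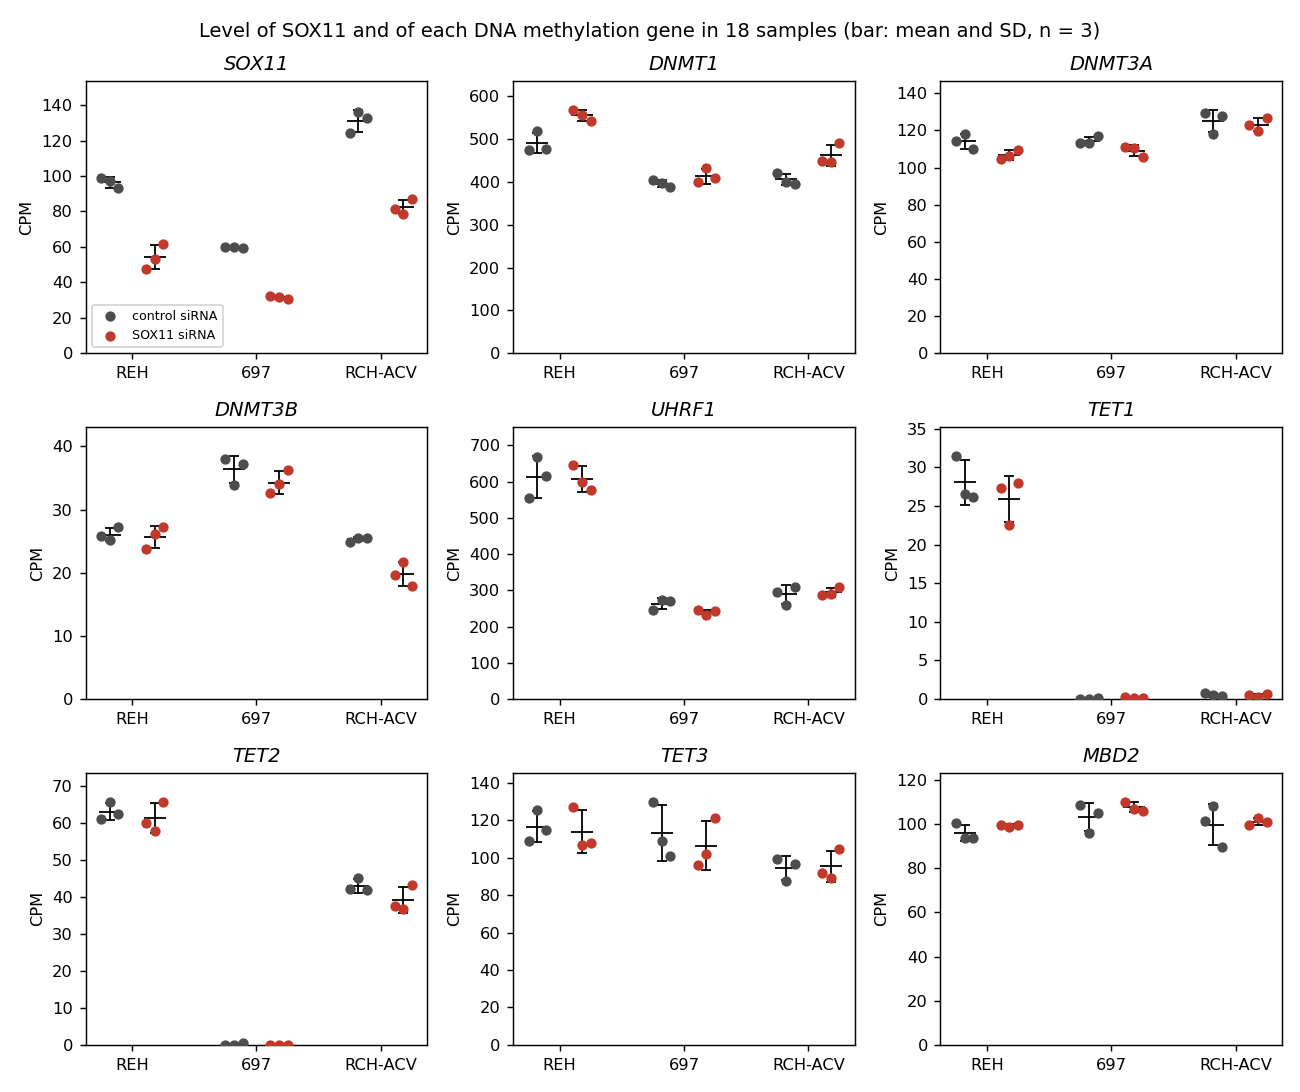
Level of *SOX11* and of the 8 members in CPM (linear axes from 0) in REH, 697 and RCH-ACV, with control siRNA in grey and *SOX11* siRNA in red. Points are samples and the bars give the mean and SD of 3. *TET1* is at the bottom of the axis in 697 and RCH-ACV and *TET2* in 697, while *DNMT1* lies higher in red than in grey without overlap in REH and RCH-ACV.

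*TET1* (chromosome 10, 70320094 to 70454244, plus strand, 12 exons) had 31.5, 26.5 and 26.2 CPM in the REH control samples, from 331, 339 and 202 counts. The 697 control samples had 0, 0 and 1 counts, and those with *SOX11* siRNA 2, 1 and 1. The RCH-ACV samples had 7, 4 and 3 counts with control siRNA and 4, 4 and 6 with *SOX11* siRNA. Every REH sample was therefore far above every sample of the other lines, whichever siRNA it had. From the summed counts of the control samples, 872 in REH and 14 in RCH-ACV, REH was 50.3 times RCH-ACV (95% counting interval 29.8 to 92.4). Against the single count in 697, from control replicate 3, the ratio was 628 (112 to 24827). It was 399 without control replicate 1 of 697 and could not be formed without replicate 3. RCH-ACV over 697 was 12.5 (1.90 to 528) in the control samples, 7.94 without control replicate 1 of 697, and 2.63 (0.826 to 11.0) in those with *SOX11* siRNA, an interval that holds 1, so the order of these lines is not settled at this depth.

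*TET2* (chromosome 4, 106067032 to 106200973, plus strand, 11 exons) had 61.1, 65.6 and 62.3 CPM in REH and 42.0, 45.1 and 41.8 CPM in RCH-ACV with control siRNA. In 697 the counts were 0, 0 and 3 with control siRNA and 0, 0 and 0 with *SOX11* siRNA. REH and RCH-ACV did not overlap, and REH was higher by 0.54 on the log2 scale (SE 0.08, adjusted p = 4.82e-06). Over the control samples REH was 471 times 697 (161 to 2287) and RCH-ACV 320 times 697 (109 to 1552). All 3 counts in 697 were from control replicate 3, so without that sample there was no ratio, and without control replicate 1 of 697 the ratios were 300 and 203. In the samples with *SOX11* siRNA, with 697 set to the floor of 3 counts in each library, *TET2* was at least 174-fold higher in REH and at least 109-fold higher in RCH-ACV.

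Other genes also had low values in a single line. Of the 14026 genes tested over the 18 samples, 82 (0.585%) were below 1 CPM in all 697 samples and at 10 CPM or more in every sample of the other lines, and *TET2* is one of them. The same pattern was found in 133 genes (0.948%) for REH and in 6 (0.0428%) for RCH-ACV. Another 82 (0.585%) were at 10 CPM or more in every REH sample and below 1 CPM in every sample of the other lines, and *TET1* is one of those, beside 36 genes (0.257%) for 697 and 74 (0.528%) for RCH-ACV.

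The protein-coding genes with any part within 1 Mb of either end of *TET2* were read in the same samples (chosen after the levels of *TET2* were seen). *PPA2*, an inorganic pyrophosphatase of mitochondria, whose start is 328 kb from that of *TET2*, had 96.6 CPM in RCH-ACV, 60.8 in REH and 42.0 in 697. *GSTCD* had 33.6, 46.1 and 36.8 CPM in the same order, and *TBCK* 39.1, 22.3 and 32.2 CPM. *INTS12*, a subunit of the Integrator complex, had 30.9, 30.3 and 30.5 CPM. These 4 genes, whose starts all lie downstream of that of *TET2*, were at 22.3 CPM or more in every line, 697 included. The mean of *PPA2* was lowest in 697, that of *TBCK* in REH and that of *GSTCD* in RCH-ACV. The cause of the low *TET2* values in 697 was not tested. *NPNT* was at 0 and *ARHGEF38* below 1 CPM in all 3 lines. *CXXC4*, the only gene with a start upstream (-651 kb), was at 0 in all 3, so the upstream side gave no expressed gene to compare. Around *TET1* the nearest genes were also read in every line: *SLC25A16*, 32.8 kb away, had 8.65, 9.75 and 8.70 CPM in RCH-ACV, REH and 697, and *DNA2*, a nuclease and helicase, had 78.1, 84.7 and 100.1 CPM. Farther away the genes were mixed. In the same order *HK1* had 122, 98.3 and 10.1 CPM, *SRGN* 28.7, 1.62 and 1.27 CPM and *DNAJC12* 0, 7.24 and 16.9 CPM, while *SIRT1* had 75.1, 79.2 and 78.5 CPM.

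**Figure D2:**
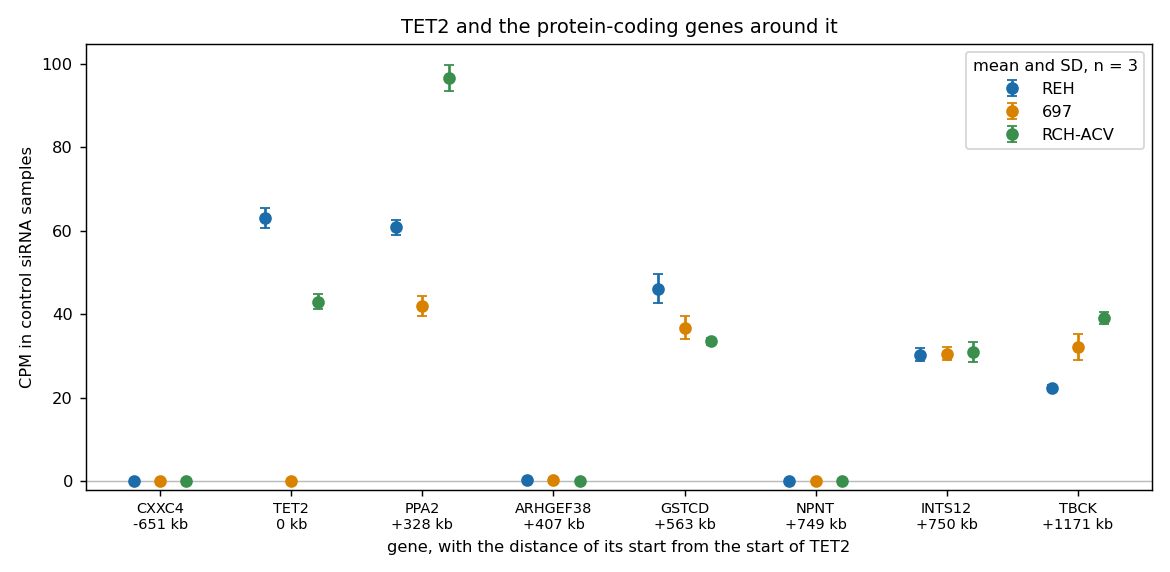
*TET2* and the protein-coding genes with any part within 1 Mb of either of its ends, in order of the distance of their start from that of *TET2* in kb, with the level in CPM in the control samples of each line (points and bars, mean and SD of 3). In 697 *TET2* is at the floor, while *PPA2*, *GSTCD*, *INTS12* and *TBCK* are between 30.5 and 42.0 CPM.

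*TET3* (chromosome 2, 74212037 to 74335303, plus strand, 12 exons) had 109, 125 and 115 CPM in REH, 130, 109 and 101 CPM in 697 and 99.2, 87.3 and 96.9 CPM in RCH-ACV. REH and 697 overlapped and did not pass the test (0.03, SE 0.08, adjusted p = 0.732), while RCH-ACV was below REH without overlap (0.29 for REH over RCH-ACV, SE 0.08, adjusted p = 0.00313). The step from 697 to RCH-ACV, 0.26 (SE 0.08, adjusted p = 0.0102), was lost without 697 control replicate 1 (0.15, adjusted p = 0.0620), the sample with 130 CPM, and without RCH-ACV control replicate 2 (0.21, adjusted p = 0.0558).

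*UHRF1* (chromosome 19, 4903092 to 4962165, plus strand, 18 exons) had 555, 669 and 616 CPM in REH, 245, 273 and 269.5 CPM in 697, and 296, 261 and 311 CPM in RCH-ACV. The REH samples stood above all others. REH over 697 was 1.22 on the log2 scale (SE 0.07, adjusted p = 1.10e-11) and REH over RCH-ACV 1.07 (SE 0.07, adjusted p = 7.12e-11), while 697 and RCH-ACV overlapped (0.14 lower in 697, with the interval from 0.29 lower to 0.00, adjusted p = 0.0801). Without RCH-ACV control replicate 2, the sample with 261 CPM, the last difference passed at 0.21 lower in 697 (adjusted p = 0.0143).

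*DNMT1* (chromosome 19, 10244018 to 10341962, minus strand, 41 exons) was also highest in REH, with smaller steps. Its control samples had 476, 519 and 478 CPM in REH, 404, 398 and 387 CPM in 697, and 421, 401 and 396 CPM in RCH-ACV. REH was above both without overlap, by 0.30 over 697 (SE 0.04, adjusted p = 4.92e-06) and 0.26 over RCH-ACV (SE 0.04, adjusted p = 2.36e-05), and 697 and RCH-ACV did not pass the test (adjusted p = 0.473).

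Of the de novo enzymes, *DNMT3B* was highest in 697 and *DNMT3A* in RCH-ACV. *DNMT3B* (chromosome 20, 31350191 to 31397165, plus strand, 23 exons) had 38.0, 33.9 and 37.2 CPM in 697, 25.8, 25.2 and 27.2 CPM in REH, and 24.9, 25.5 and 25.5 CPM in RCH-ACV. The 697 samples were above both other lines, by 0.50 over REH (SE 0.08, adjusted p = 1.03e-05) and 0.52 over RCH-ACV (SE 0.08, adjusted p = 1.55e-05), and REH and RCH-ACV did not pass the test (0.02, SE 0.08). *DNMT3A* (chromosome 2, 25450724 to 25565459, minus strand, 23 exons) had 114, 118 and 110 CPM in REH, 113, 113 and 117 CPM in 697, and 129, 118 and 128 CPM in RCH-ACV. RCH-ACV was higher by 0.14 than REH (adjusted p = 0.0185) and by 0.13 than 697 (adjusted p = 0.0371), the smallest differences between lines that passed, and each was lost when 1 of 3 or 1 of 4 single control samples was left out (adjusted p up to 0.0861 and 0.141). These were REH replicate 3 and RCH-ACV replicates 1 and 3 against REH, and replicates 1 and 2 of 697 and 1 and 3 of RCH-ACV against 697.

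*MBD2* (chromosome 18, 51677976 to 51751039, minus strand, 7 exons) was the only member for which no pair of lines passed the test. It had 100.3, 93.8 and 93.6 CPM in REH, 108, 96.1 and 105 CPM in 697, and 101, 108 and 89.7 CPM in RCH-ACV. REH over 697 was -0.12 (95% interval -0.26 to 0.02), REH over RCH-ACV -0.07 (-0.21 to 0.07) and 697 over RCH-ACV 0.05 (-0.09 to 0.20).

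None of the members had the order of *SOX11*, RCH-ACV over REH over 697, with every step past the test. *SOX11* itself was 0.45 lower in REH than in RCH-ACV (SE 0.05) and 0.68 higher in REH than in 697 (SE 0.06). The values of *TET2* for 697 were lowest, as those of *SOX11*, but REH was above RCH-ACV. *DNMT3A* was highest in RCH-ACV, as *SOX11*, but did not differ between REH and 697 by the test (-0.01, SE 0.05).

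Levels can be compared between genes only per length. Per kb of the canonical transcript, *UHRF1* was at 157 ± 14.7 CPM per kb (SD, n = 3) and *DNMT1* at 93.1 ± 4.64 CPM per kb in the REH control samples. *MBD2* followed at 18.9, *DNMT3A* at 12.1, *TET3* at 9.66, *TET2* at 6.57, *DNMT3B* at 6.01 and *TET1* at 2.92 CPM per kb. The order in REH was the same per kb of coding sequence, where *UHRF1* was at 258, *DNMT1* at 100.3 and *TET1* at 4.38 CPM per kb. In 697 and RCH-ACV the order of *UHRF1* and *DNMT1* turned with the length used (67.4 and 75.2 CPM per kb of transcript in 697, and 110 and 81.0 per kb of coding sequence).

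The question of the knockdown was whether these genes change when *SOX11* is lowered. *DNMT1* rose in REH and in RCH-ACV, by 13.4% and 13.7%, and was not called in 697. Its call in RCH-ACV was kept in 4 of 6 fits that left out 1 sample. *DNMT3B* fell by 20.7% in RCH-ACV, in a call kept in 2 of 6 such fits and lost with DESeq2. The TET genes, *UHRF1*, *DNMT3A* and *MBD2* were called in no line. In REH 1 of 8 members was called, against 4.65% of 12787 genes tested. In RCH-ACV 2 of 7 tested members were called, against 7.66% of 12963 genes. In 697 edgeR's test called 0 of 6 tested members, against 0.559% of 12169 genes, with 1 member at an unadjusted p under 0.05, and DESeq2 also called 0.

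**Figure D3:**
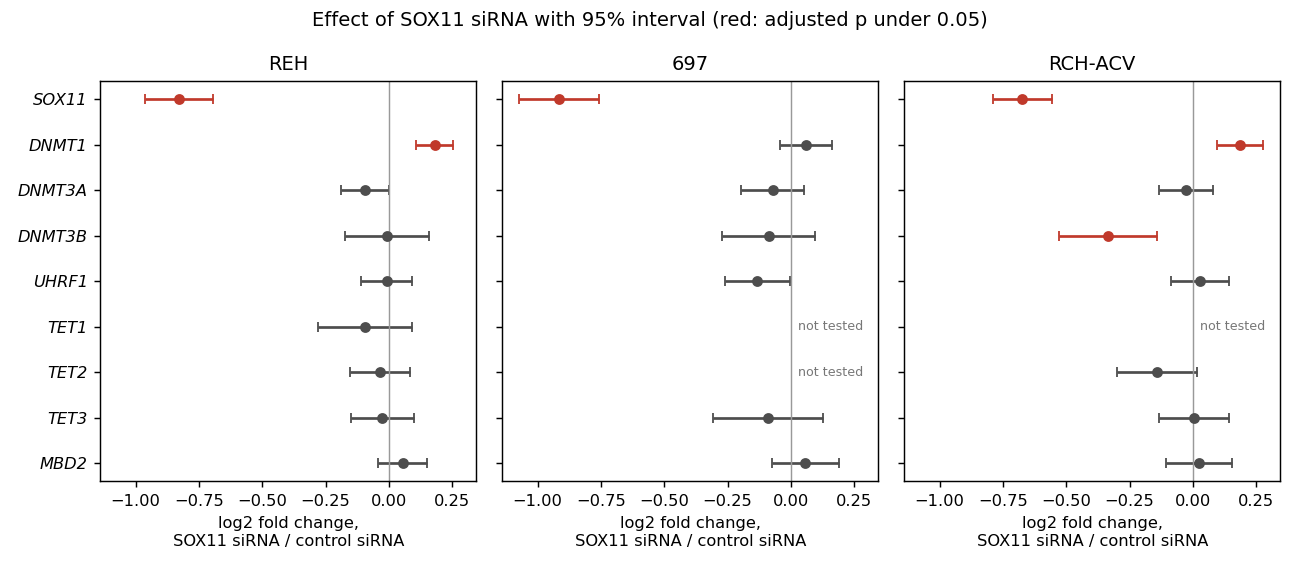
Log2 fold change of *SOX11* siRNA over control siRNA for *SOX11* and the 8 members in each line, with the 95% interval of the fit from 3 samples against 3, in red where the adjusted p-value was under 0.05. *DNMT1* is red at 0.18 in REH and 0.19 in RCH-ACV, *DNMT3B* is red at -0.33 in RCH-ACV, and the genes with too few counts are marked as not tested.

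*DNMT1* had 568, 556 and 543 CPM in the REH samples with *SOX11* siRNA, against 476, 519 and 478 CPM with control siRNA. The lowest of the former was above the highest of the latter. The log2 fold change was 0.18 (SE 0.04, 95% interval 0.11 to 0.26, adjusted p = 0.00265), and it stayed past the threshold without any 1 of the 6 samples (0.16 to 0.22). In RCH-ACV the samples had 449, 446 and 491 CPM with *SOX11* siRNA and 421, 401 and 396 CPM with control siRNA, again without overlap (0.19, SE 0.04, 95% interval 0.09 to 0.28, adjusted p = 0.0143). That call was lost without control replicate 2 (0.18, adjusted p = 0.0891) or control replicate 3 (0.17, adjusted p = 0.0848). In 697 the 399.5, 433 and 409 CPM with *SOX11* siRNA overlapped the 404, 398 and 387 CPM with control siRNA, and the log2 fold change was 0.06 (SE 0.05, 95% interval -0.04 to 0.16, adjusted p = 0.854).

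Whether the effect differed between lines was tested over the 18 samples. The effect on *DNMT1* was not shown to differ (adjusted p = 0.647), nor was that on *SOX11* (adjusted p = 0.539). Of the 8 members edgeR's test of this difference called 0, against 0.727% of 14026 genes, with 1 at an unadjusted p under 0.05, *DNMT3B* (adjusted p = 0.427), and DESeq2 called 0. The effect common to the lines, fitted with cell line as a covariate, was 0.14 for *DNMT1* (SE 0.03, adjusted p = 0.00133), the 1 member of 8 called there, against 9.02% of genes. It was above the threshold in each of the 18 fits that left out 1 sample.

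*DNMT3B* in RCH-ACV had 19.7, 21.7 and 17.9 CPM with *SOX11* siRNA and 24.9, 25.5 and 25.5 CPM with control siRNA. The groups did not overlap, and the fold change was -0.33 (SE 0.09, 95% interval -0.53 to -0.14, adjusted p = 0.0339). The call was lost with DESeq2 (adjusted p = 0.0987) and without *SOX11* siRNA replicate 1 or any of the 3 control samples (adjusted p from 0.0928 to 0.105), with a fold change between -0.34 and -0.33 in these fits. Without *SOX11* siRNA replicate 2 or 3 the fold change was -0.43 or -0.27, and the call was kept. In REH the 23.8, 26.1 and 27.2 CPM with *SOX11* siRNA and the 25.8, 25.2 and 27.2 CPM with control siRNA overlapped (-0.01, SE 0.08), and in 697 the 32.6, 34.0 and 36.2 CPM and the 38.0, 33.9 and 37.2 CPM did as well (-0.09, SE 0.08). The common effect was -0.14 (SE 0.05, adjusted p = 0.112).

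*DNMT3A* had 105, 106 and 109.7 CPM with *SOX11* siRNA in REH against 114, 118 and 109.9 CPM with control siRNA, groups that just did not overlap, but the fold change of -0.09 (SE 0.05) did not pass (adjusted p = 0.290). It was -0.07 in 697 (SE 0.06, adjusted p = 0.852) and -0.03 in RCH-ACV (SE 0.05, adjusted p = 0.810). *UHRF1*, the partner of DNMT1, was not called. Its fold change was -0.01 in REH (SE 0.05, 95% interval -0.11 to 0.09), -0.13 in 697 (SE 0.06, adjusted p = 0.582, the member under 0.05 before adjustment) and 0.03 in RCH-ACV (SE 0.05, 95% interval -0.09 to 0.14).

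The TET genes were called nowhere. *TET1* could be tested only in REH, where it had 27.4, 22.5 and 28.0 CPM with *SOX11* siRNA against 31.5, 26.5 and 26.2 CPM (-0.09, SE 0.09, adjusted p = 0.665). *TET2* had 60.0, 57.8 and 65.7 CPM with *SOX11* siRNA in REH (-0.04, SE 0.06, adjusted p = 0.826). In RCH-ACV it had 37.6, 36.7 and 43.1 CPM, the highest of which lay among the control samples at 42.0, 45.1 and 41.8 CPM. Its fold change there was -0.14 (SE 0.08, adjusted p = 0.282), and it passed without *SOX11* siRNA replicate 3, the sample with 43.1 CPM (-0.21, adjusted p = 0.0341). *TET3* had fold changes of -0.03, -0.09 and 0.00 in REH, 697 and RCH-ACV, and *MBD2* of 0.05, 0.06 and 0.02, with adjusted p-values of 0.620 or more.

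The intervals say what could have been missed. In the lines where a member was tested but not called, the 95% interval reached at most 0.19 above 0 and 0.31 below 0, the latter for *TET3* in 697. The fall of *SOX11* was wider than these bounds in each line.

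The tables list several RefSeq transcripts for a gene, and the reads they share are counted for each. Transcripts with an own end were read beside the one kept. The short 5′ *DNMT3A* transcript NM_175630 had counts that were 4.28% ± 0.584 (SD, n = 3) of those of NM_022552 in the REH control samples, 2.59% ± 0.604 in those of RCH-ACV and 1.42% ± 0.448 in those of 697. In a fit over all transcripts it was 1.53 higher in REH than in 697 on the log2 scale (SE 0.25, adjusted p = 1.71e-05) and 0.99 lower in 697 than in RCH-ACV (SE 0.29, adjusted p = 0.00525), from counts of 7 to 58 per control sample. With *SOX11* siRNA the RCH-ACV samples had 4.41%, 3.31% and 3.96% against 2.29%, 2.20% and 3.29%, and the fold change of 0.49 (SE 0.21) did not pass (adjusted p = 0.174). The short *TET2* transcript NM_017628 had counts at 34.8%, 33.8% and 39.3% of those of the long one in REH and 35.0%, 36.6% and 40.9% in RCH-ACV, and the short *MBD2* transcript NM_015832 was at 7.58% to 7.99% of the long one in the means of the 3 lines, with ranges that overlapped for both genes. No member's exons overlapped an exon of a gene on the opposite strand.

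The 2 genes whose log2 level was most like that of each member over the 18 samples were taken among those whose mean level reached 5 CPM. The 18 samples fall into 3 lines, so these values share the differences between lines, and they are given with no test. *TET2* was closest to *CCDC112* (Pearson's r = 0.999) and *PDE3B*, a phosphodiesterase (0.999). In the control samples both had a mean of 0.0450 CPM in 697, under the floor, and means of 20.3 to 39.6 CPM in the other lines. *UHRF1* was closest to *RNF40*, a histone H2B ubiquitin ligase (0.992), and *GRK2* (0.992), and *TET1* to *RASD1* (0.993) and *ARRDC2* (0.993). *DNMT1* was closest to *GBF1* (0.945) and *FANCD2*, a gene of DNA crosslink repair (0.942), *DNMT3B* to *CBR4* (0.952) and *CEP63* (0.952), and *TET3* to *HECTD4* (0.930) and *HIPK2* (0.903). The values were lower for *DNMT3A*, with *APCDD1* (0.898) and *COL1A1* (0.892), and for *MBD2*, with *AEBP2* (0.864) and *GOLPH3* (0.780). *SOX11* was closest to *MLLT11* (0.940) and *EBF1*, a B-cell transcription factor (0.926), and no member was among its 2.

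A wider list of 42 DNA methylation genes was read beside the members. It holds other genes of the reader families (called readers below), partners of the writers, demethylation and repair genes, and the supply of methyl groups. In REH, 36 were tested and 1 was called (4.65% of all genes), *HELLS*, a remodeler needed for methylation of repeats, which rose by 0.21 (SE 0.05, adjusted p = 0.00744). In 697 edgeR's test called 0 of 35 (0.559% of all genes). In RCH-ACV 4 of 36 were called, where 7.66% of all genes were: *MBD6* rose by 0.32 (SE 0.08, adjusted p = 0.0212), *OGT*, whose enzyme binds TET proteins, rose by 0.17 (SE 0.04, adjusted p = 0.0239), *SHMT2*, of mitochondrial one-carbon metabolism, rose by 0.15 (SE 0.04, adjusted p = 0.0396), and *MAT2B*, the regulatory subunit of the enzyme that makes S-adenosylmethionine, fell by 0.22 (SE 0.04, adjusted p = 0.00339). The median fold change over the list was 0.04, 0.01 and 0.03 in REH, 697 and RCH-ACV, beside -0.0023, -0.0035 and 0.0051 over all genes tested. The test of a difference between lines called 0 of 36.

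By role, the 7 tested partners of the writers had a median fold change of -0.01 in RCH-ACV, 0.04 in 697 and 0.06 in REH, and the 8 readers -0.01, -0.01 and 0.01. The demethylation genes had 0.13, -0.01 and -0.03 in the same order (12, 11 and 12 tested), and the 9 methyl donor genes 0.08, 0.01 and 0.04. Of the 12 demethylation genes in RCH-ACV, 7 were above 0 and 5 below. The effect common to the lines passed for 5 of 36, where 9.02% of all genes passed: *HELLS* (0.12, adjusted p = 0.0307) and *NEIL1*, a DNA glycosylase at about 2 CPM (0.67, adjusted p = 0.0331), rose, and *GADD45A*, a stress gene linked to demethylation (-0.27, adjusted p = 0.00179), *IDH2*, whose enzyme makes the cofactor of the TET proteins (-0.11, adjusted p = 0.00411), and *MAT2B* (-0.11, adjusted p = 0.0144) fell.

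Between the lines the widest difference of each role was in *ZBTB4* among the readers, at 65.3 CPM in REH and 28.9 CPM in 697 (1.17, SE 0.07), in *UHRF2* among the partners, at 183 CPM in REH and 101 CPM in RCH-ACV (0.85, SE 0.05), in *GADD45B* among the demethylation genes, at 20.1 CPM in REH and 4.48 CPM in RCH-ACV (2.14, SE 0.13), and in *MTR*, methionine synthase, among the genes of methyl supply, at 88.6 CPM in REH and 212 CPM in 697 (-1.27, SE 0.08). Of the 36 genes tested 24 differed between REH and 697, 25 between REH and RCH-ACV, and 23 between 697 and RCH-ACV. Of all genes tested, 76.3%, 73.9% and 64.2% differed in the same comparisons, so these counts are not above the background.

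**Figure D4:**
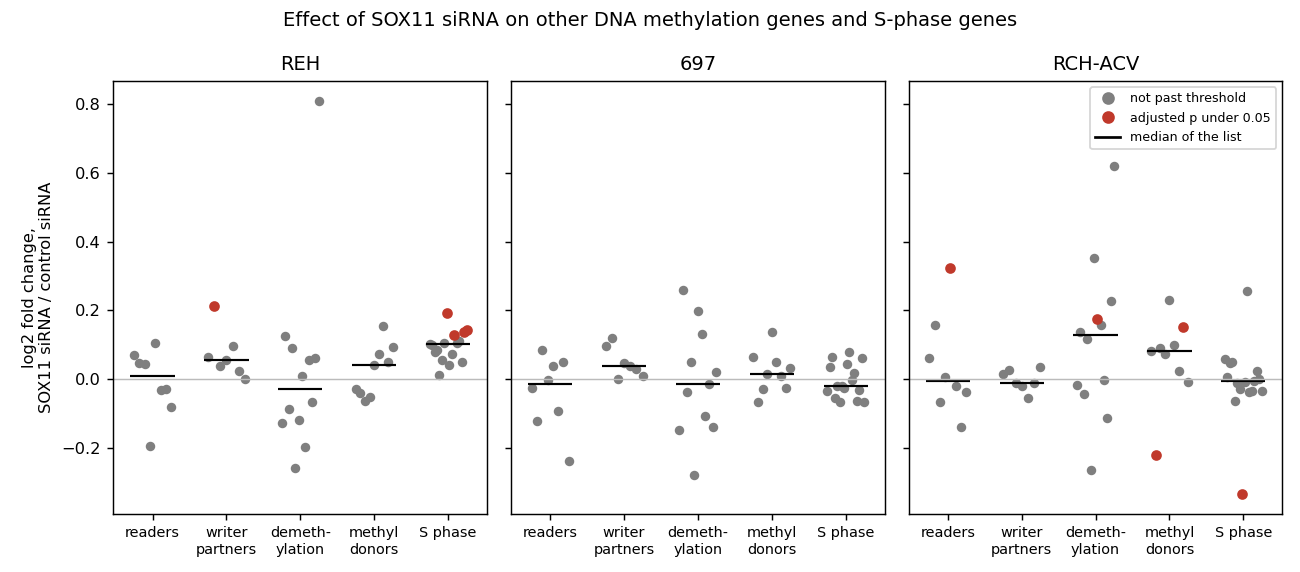
Log2 fold change of *SOX11* siRNA over control siRNA of the readers, writer partners, demethylation genes and methyl donor genes, and of 16 S-phase genes, in each line. Points are genes, red where the adjusted p-value was under 0.05, and black bars are medians, with the S-phase median at 0.10 in REH, -0.02 in 697 and -0.01 in RCH-ACV.

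*DNMT1* and *UHRF1* are expressed mostly in cells that replicate their DNA, so 16 S-phase genes were read beside them. In REH all 16 had a fold change above 0, from 0.01 for *MCM6* to 0.19 for *CCNE2*, cyclin E2, with a median of 0.10, and 4 were called, *CCNE2*, *RRM2*, *SLBP* and *E2F1*, where 4.65% of all genes were. In 697 edgeR's test called 0 of 16, where it called 0.559% of all genes (median -0.02, from -0.07 for *E2F1* to 0.08 for *CDT1*). In RCH-ACV, where *DNMT1* also rose, 7 of 16 were above 0 (median -0.01) and 1 was called, where 7.66% of all genes were. This was *CCNE2*, which fell by 0.33 (SE 0.06, adjusted p = 0.00165), while the highest was *CDT1* at 0.26 (adjusted p = 0.0872). The effect on *CCNE2* differed between lines (adjusted p = 0.00953), the only one of the 16 to do so by this test. The share of cells in S phase was not measured, and its part in the *DNMT1* values was not tested. In the control samples the S-phase genes had a median of 0.19 for REH over 697 (from -0.14 to 2.42). For REH over RCH-ACV the median was 0.37 (from -0.57 to 1.08). *UHRF1*, at 1.22 and 1.07, was within these ranges, as was *DNMT1*, at 0.30 and 0.26.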

How the data were processed

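Per the labels and the methods of the study, libraries were made from total RNA with a stranded mRNA kit, and reads were trimmed, aligned to hg19 with STAR 2.5.3a and counted with HOMER; the strand setting of the counting is not given in the sources used here. The authors deposited raw counts on 50678 RefSeq transcripts, without normalization, in 1 table for each of the 3 lines; 0 columns belonged to other samples.

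Symbols were found for 98.0% of transcripts and 99.0% of counts, and a gene was represented by its transcript with the largest summed count in the 18 samples. Groups were tested with edgeR 4.0.16 in R 4.3.3 (TMM, filterByExpr, quasi-likelihood F-test, two-sided, Benjamini-Hochberg): each line by itself for the siRNA, the 9 control samples for the lines, and all 18 samples, adjusted for line, for the common effect and the interaction. Log2 levels used a prior count of 2. Gene positions and lengths are those of GENCODE on hg19; the lengths of the RefSeq versions counted were not used. Promoter windows are from RefSeq.

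Alternatives were RLE factors, library size alone, the legacy method of edgeR, DESeq2 1.42.0, no filter, CPM above 1 in at least 3 samples, 1 fit over 18 samples, other transcript choices, adjusted p under 0.01, the replicate number as a block, and leaving out each sample. Comparing lines in the 9 *SOX11* siRNA samples was chosen after seeing the data. The members and lists were chosen with earlier results of these data known. Named were all members, genes of the lists called after the siRNA or widest between lines in their role, the lowest and highest S-phase genes, and the 2 most alike genes. Python 3.11.15 was used for tables and plots. A feature of some of the lines is not reported here.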

Additional observations from a re-analysis of the deposited data

How the results depend on the processing

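Counts of members called changed by more than 1.5 times in 2 comparisons. In RCH-ACV 2 members were called after the siRNA, 0 at an adjusted p under 0.01, 1 with DESeq2, and 0 to 3 when 1 sample was left out. Between 697 and RCH-ACV 5 of 8 were called, 3 at an adjusted p under 0.01, and 3 to 5 when 1 sample was left out. Of all 13686 genes tested between these lines, 8792 were called, and 7419 at an adjusted p under 0.01. The DESeq2 test of a difference between lines was a likelihood ratio test, the others Wald tests. Of all genes, 594 were called in REH, 315 with DESeq2 and 241 in 1 fit over 18 samples. In 697 68 were called, 29 with the replicate block and 193 in 1 fit over 18 samples. In RCH-ACV 993 were called, 406 at an adjusted p under 0.01, and 577 with DESeq2. When 1 sample was left out 386 to 2522 were called, the highest without *SOX11* siRNA replicate 3.

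The replicate numbers were not taken to pair the samples, since the deviations of *SOX11* siRNA and control siRNA samples with the same number correlated between -0.15 and 0.16 and 2 of 9 numbers correlated best with their own. With the replicate number as a block 1 member was called in RCH-ACV, *DNMT1*, and *DNMT3B* was at -0.35 (adjusted p = 0.0503). In the other comparisons the count of members called was the same with the block.

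Scaling by library size alone moved the median of all genes for REH over 697 from 0.02 to 0.15, and moved the values of the other pairs of lines by under 0.1. With it *DNMT3A* turned to 0.12 for REH over 697 (adjusted p = 0.0356), and *MBD2* turned to 0.0168 for REH over 697, 0.0068 for REH over RCH-ACV (from -0.07) and -0.0100 for 697 over RCH-ACV. With it *DNMT3A* lost its call for REH over RCH-ACV (-0.07), and *DNMT1* and *UHRF1* were called lower in 697 than in RCH-ACV (-0.10 and -0.20). In the samples with *SOX11* siRNA in place of control siRNA, *DNMT3B* was called higher in REH than in RCH-ACV (0.36), *DNMT1* and *UHRF1* lower in 697 than in RCH-ACV (-0.16 and -0.30), and *TET3* (0.17) and *TET1* (-1.33, adjusted p = 0.129) were not called between them.

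Small values changed sign when 1 sample was left out, none of them called in the full set. After the siRNA these were, in REH, *DNMT3B* (-0.0522 to 0.0483), *UHRF1* (-0.0769 to 0.0603) and *TET3* (-0.119 to 0.0365), in 697 *TET3* (-0.186 to 0.0198), and in RCH-ACV *DNMT3A* (-0.0613 to 0.00266), *UHRF1* (-0.0376 to 0.0816), *TET3* (-0.0658 to 0.0560) and *MBD2* (-0.0478 to 0.0857). Between lines these were *DNMT3A* (-0.0338 to 0.0141) and *TET3* (-0.0475 to 0.146) for REH over 697, *DNMT3B* for REH over RCH-ACV (-0.00393 to 0.0507) and *MBD2* for 697 over RCH-ACV (-0.0279 to 0.111). *TET3* was called for REH over 697 without 697 control replicate 1 (0.15, adjusted p = 0.0427), and *MBD2* without 697 control replicate 2 (-0.17, adjusted p = 0.0466). The cause of these changes was not tested. Apart from these settings and the single samples named with the results above, members stayed on the same side of the threshold, except for *DNMT3A* for 697 over RCH-ACV with no filter or DESeq2 (-0.13) and the calls lost at an adjusted p under 0.01.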
